A study of Mus musculus with 36 samples.

Results

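The genes described here are the 10 core circadian clock genes *Per1*, *Per2*, *Per3*, *Cry1*, *Cry2*, *Arntl* (also called *Bmal1*), *Clock*, *Nr1d1*, *Nr1d2* and *Dbp*, picked by name from a table of 55416 genes. All 10 passed the filter on low counts, which 13995 genes passed. RNA was sequenced from C2C12 myotubes, fused muscle cells grown from a line of mouse myoblasts in low serum, in 6 groups of 6 libraries. On day 3 of differentiation the myotubes were transfected with an antisense locked nucleic acid (LNA), either a negative control (control) or one that knocks down the long non-coding RNA *Tug1* (*Tug1* KD), and on day 4 they were left unstimulated (Rest) or given 3 h of electrical pulse stimulation (EPS), an in vitro model of muscle contraction. EPS consisted of 2 ms pulses at 13 V and 66 Hz, alternating 5 s of pulses with 5 s of pause. Lysates were taken at its end (EPS 0h) or 3 h later (EPS 3h). The 6 groups were therefore Rest control, EPS 0h control, EPS 3h control, Rest *Tug1* KD, EPS 0h *Tug1* KD and EPS 3h *Tug1* KD, all from 1 cell line without other genetic changes named in the labels.

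Several features of the design limit these groups as a model of the clock. The Rest wells had electrodes in the medium without current for as long as the EPS lasted. With 1 Rest group per LNA, recovery from EPS and the passage of time cannot be told apart in the EPS 3h groups. The hour of the Rest collection is not given in the sources used here. Whether it matches EPS 0h or EPS 3h is therefore not known. No step named as synchronising the clocks of the cells and no time of day is given in the sources used here. The study's methods do give a change of medium during differentiation, fresh medium at transfection and added medium before EPS. Whether these steps reset the clocks was not tested. By the study's methods a group holds triplicate wells from each of 2 experiments. The labels give only replicates 1 to 6, so p-values measure the spread between these wells. Replicates 1 to 3 and replicates 4 to 6 are treated as 2 sets, a split taken from the data. The sample records also list replicates 1 to 3 of all groups before replicates 4 to 6, without naming an experiment. In the data the split is clear in 2 of 9 comparisons, EPS 0h against Rest in control and the knockdown at EPS 0h. There all correlations within sets exceeded those across them, and in the other 7 comparisons they did not. Values within each set are given beside part of the results they change. In RNA from whole wells, fewer cells of a type and less RNA per cell cannot be told apart.

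The mammalian clock is a feedback loop of transcription that runs in almost every cell, skeletal muscle included. The proteins CLOCK and BMAL1 bind E-box sequences as a pair and activate the *Per* and *Cry* genes, whose proteins return to the nucleus and inhibit that pair. In a second loop the nuclear receptors REV-ERBα and REV-ERBβ, encoded by *Nr1d1* and *Nr1d2*, repress *Arntl* through ROR elements, and DBP carries the rhythm to output genes through D-box sequences. *Per1* and *Per2* are also known as immediate responders to cAMP, calcium and glucocorticoid signals, through which feeding, hormones and activity reset clocks in peripheral tissues.

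Because these sequence elements define the loop, the promoters of the members were searched for them. RefSeq promoter sequences on GRCm38.p6 were given for 9 of the 10 members at 13 transcription starts, *Per2* being the exception, and the 250 bases before each start were searched on both strands. A member counts if any of its starts matched, while the shares are over single promoters, so the 2 are not in the same unit. CACGTG (E-box) was found at 2 members and in 6.02% of all 32817 promoters of the same length. TTATGTAA, TTACATAA or TTACGTAA (D-box) was found at 1 member and in 0.929% of all promoters. AGGTCA, the core of ROR elements, was found at 3 members and in 14.0% of all promoters, and TGACG, the short form of the cAMP response element, at 3 members and in 17.7%. The whole cAMP response element TGACGTCA, in which that short form lies, was found at no member and in 1.55% of all promoters, and GAANNTTC, the core of the heat shock element, at no member and in 6.69%. The stretches that hold E-box, D-box or ROR core letters in *Cry1*, *Per1*, *Per3* and *Nr1d2* are shown because their levels are compared below, with the matches in capitals. Positions count back from the base before the start (-1), and a match describes letters only.

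*Cry1*, chr10:85185055-85185134, minus strand, E-box at -60 and TGACG at -8: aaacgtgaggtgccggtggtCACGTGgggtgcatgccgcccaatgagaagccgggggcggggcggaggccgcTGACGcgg
*Per1*, chr11:69098699-69098818, plus strand, upstream one of 2 starts, TGACG at -246, E-box at -166 and the ROR core TGACCT at -137: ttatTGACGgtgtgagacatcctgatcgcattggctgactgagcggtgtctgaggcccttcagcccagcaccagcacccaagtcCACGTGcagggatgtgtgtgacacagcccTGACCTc
*Per3*, chr4:151044811-151044880, minus strand, D-boxes at -205 and -158: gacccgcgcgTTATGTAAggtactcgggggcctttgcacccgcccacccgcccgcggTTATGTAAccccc
*Nr1d2*, chr14:18239157-18239206, minus strand, ROR core at -77: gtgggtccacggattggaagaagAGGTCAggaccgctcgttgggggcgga

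In the windows of *Arntl*, *Nr1d1* and *Dbp* none of these letters was found. *Cry2* held only TGACG, read as CGTCA, at -209, and 1 of the 3 *Clock* starts held only the ROR core, at -119.

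Libraries held between 17005079 and 24181167 counts, and every pair of libraries within a group differed by more than counting error. Levels are given in RPM, the normalised read count relative to the TMM-scaled library total, and differences as log_2_ fold changes (log_2_FC) from edgeR's quasi-likelihood test over all 13995 genes, with Benjamini-Hochberg adjusted p-values (FDR) and a threshold of 0.05. *Tug1* itself fell in *Tug1* KD myotubes at Rest from a median of 47.7 to 25.4 RPM, with a log_2_FC of -0.83 (Rest), -0.57 (EPS 0h) and -0.51 (EPS 3h, FDR from 0.000915 to 0.0414), and the ranges of its libraries overlapped after EPS. The summed level of the 8 myotube markers lay between 11696 and 18286 RPM in all libraries, and none of them was called in control myotubes at either time. With *Tug1* KD 1 of the 8 was lower than at Rest at each time, *Tnnt3* at EPS 0h (log_2_FC -0.48, FDR = 0.013) and *Myog* at EPS 3h (-0.29, FDR = 0.0266). The 8 markers of other cell types summed to between 3.75 and 6.78 RPM in Rest control and between 8.34 and 13.1 RPM in EPS 3h control libraries. Among them *Epcam*, an epithelial adhesion gene, had a median of 0 RPM at Rest and 3.79 RPM at EPS 3h. The pan-leukocyte marker *Ptprc* stayed at or under 1.16 RPM and the adipocyte marker *Plin1* at or under 0.164 RPM in every library. Of these 8 markers 3 were tested, and 2 were higher and 1 lower at EPS 3h in control. The 5 markers of myoblasts and cycling cells summed to between 118 and 161 RPM in Rest control, 164 and 199 RPM in EPS 0h control and 113 and 167 RPM in EPS 3h control libraries. The part of these markers in the results was not tested. Scaling by library size alone moved the log_2_FC of all genes by a median of -0.08 (EPS 0h) and -0.17 (EPS 3h) in control and of -0.09 and -0.17 in *Tug1* KD myotubes. The share of calls that were higher moved with it from 52.8% to 40.0% at EPS 0h and from 50.2% to 32.5% at EPS 3h in control, and from 53.6% to 40.5% and from 50.3% to 32.8% in *Tug1* KD myotubes.

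After EPS the clock genes moved in different directions within the same pathway. In control myotubes at EPS 0h, *Clock* and *Cry1* were higher and *Cry2* lower than at Rest, so 2 of 10 members were higher beside 20.5% of all genes tested and 1 of 10 was lower beside 18.4%. In control myotubes at EPS 3h, *Clock*, *Cry1* and *Nr1d2* were higher and *Cry2*, *Per3*, *Nr1d1* and *Dbp* lower, which is 3 of 10 beside 26.1% and 4 of 10 beside 25.9%. In *Tug1* KD myotubes 5 of 10 were higher and 1 of 10 lower at EPS 0h, beside 24.4% and 21.2% of all genes, and 5 of 10 were higher and 2 of 10 lower at EPS 3h, beside 26.2% and 25.9%. The 4 comparisons share their Rest libraries within each LNA. In either direction 38.9% (EPS 0h) and 52.0% (EPS 3h) of all genes were called with the control LNA and 45.6% and 52.1% with *Tug1* KD, so a call alone does not set a member apart. With the control LNA the members had a median log_2_FC of 0.15 (EPS 0h) and 0.10 (EPS 3h), beside -0.03 and -0.02 over all genes, and with *Tug1* KD 0.31 and 0.21, beside -0.03 and -0.04.

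**Figure D1:**
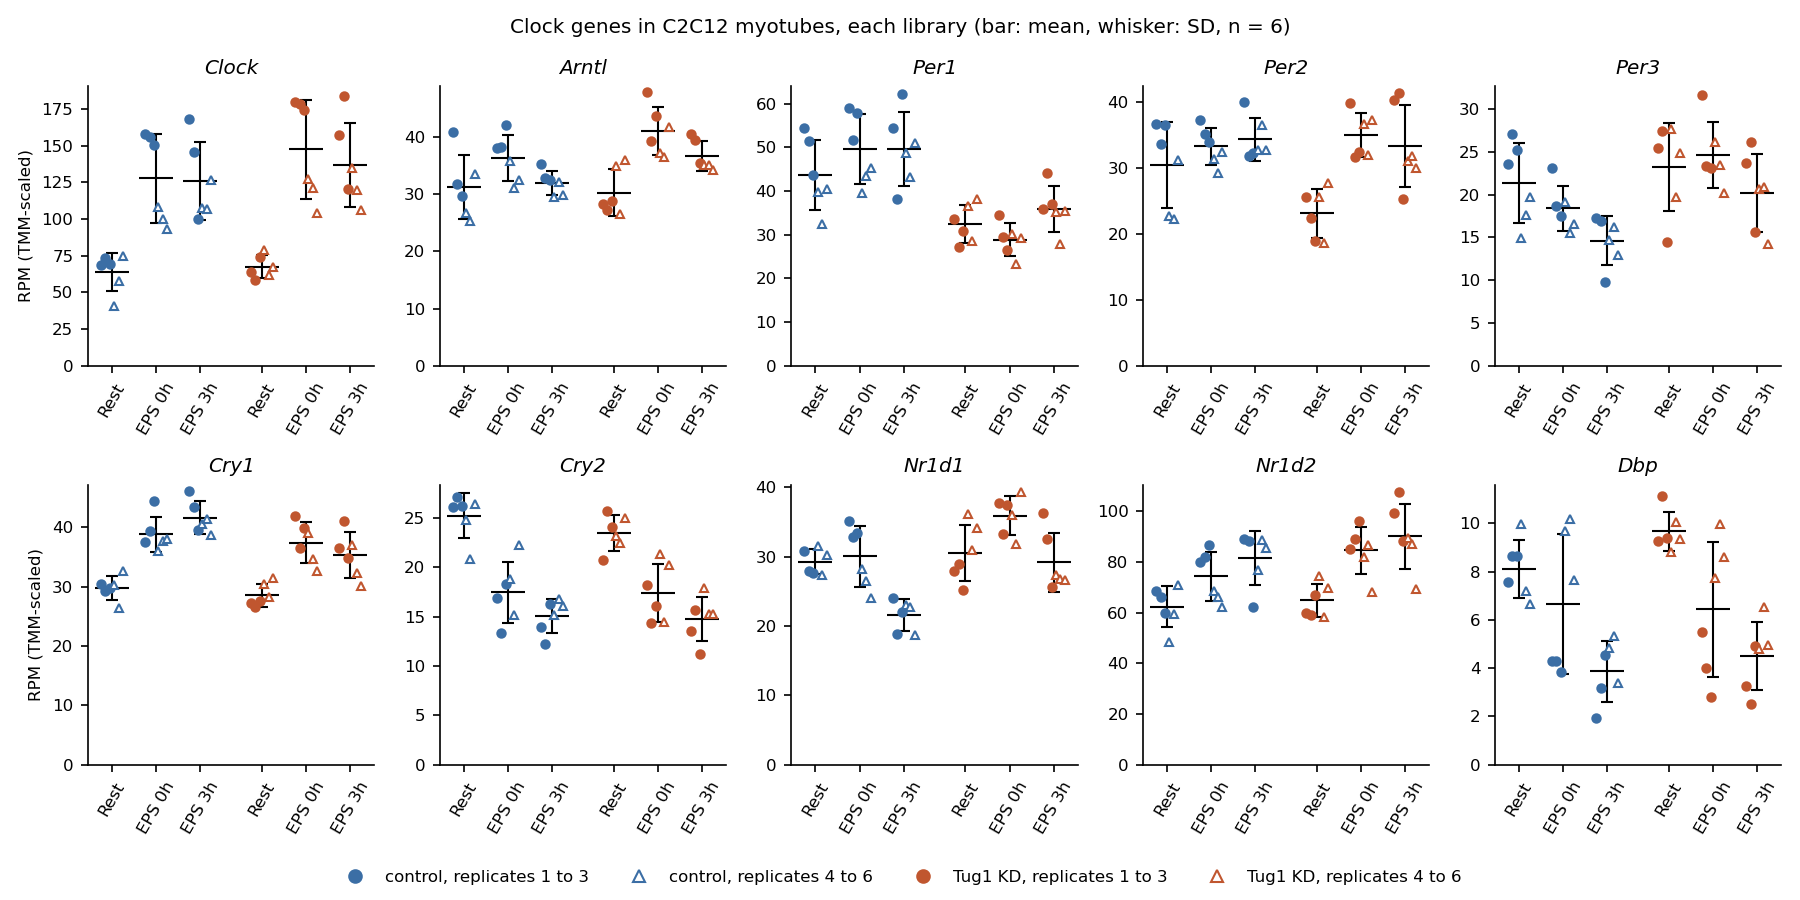
Level of each clock gene in each of the 36 libraries (y axis, RPM scaled by TMM factors, from 0) by group (x axis), with control libraries in blue, *Tug1* KD libraries in orange, filled circles for replicates 1 to 3, open triangles for replicates 4 to 6, and bars and whiskers for the mean and SD of 6 libraries. All EPS libraries of *Clock* lie above all Rest libraries of the same LNA, while *Dbp* at EPS 0h falls into a low set (replicates 1 to 3) and a high set (replicates 4 to 6).

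*Clock* (ENSMUSG00000029238, chromosome 5 of GRCm39, 76342860 to 76452846, minus strand) encodes the histone acetyltransferase partner of the activator pair. Its lowest, median and highest library had 40.6, 68.7 and 74.9 RPM in Rest control, 92.9, 129 and 158 RPM in EPS 0h control and 99.9, 117 and 168 RPM in EPS 3h control myotubes. Every stimulated library was above every Rest library. The log_2_FC was 0.99 (SE 0.167, FDR = 1.18e-05) at EPS 0h and 0.97 (SE 0.167, FDR = 7.43e-06) at EPS 3h, close to a doubling at both times, and EPS 3h and EPS 0h differed by -0.02 (95% CI -0.36 to 0.31). With *Tug1* KD, *Clock* had 58.5, 65.9 and 79.1 RPM at Rest, 104.01, 151 and 180 RPM at EPS 0h and 106, 128 and 183 RPM at EPS 3h. These ranges again did not overlap with Rest, with a log_2_FC of 1.12 (FDR = 1.25e-06) at EPS 0h and 1.02 (FDR = 3.44e-06) at EPS 3h. The rise was present in both sets of replicates, at 1.14 and 0.80 in replicates 1 to 3 and 4 to 6 at EPS 0h in control myotubes. *Clock* shares 2047 bases of exon with *Tmem165* on the other strand. *Tmem165* fell (control log_2_FC of -0.45 at EPS 0h and of -0.84 after recovery), opposite to *Clock*, and the strand setting of the counting is not given in the sources used here.

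*Arntl* (ENSMUSG00000055116, chromosome 7, 112806152 to 112914735, plus strand) encodes BMAL1, the partner of CLOCK in the activator pair. It had 25.2, 30.8 and 40.9 RPM in Rest control, 31.2, 37.0 and 42.2 RPM in EPS 0h control and 29.5, 32.3 and 35.3 RPM in EPS 3h control myotubes, with overlap between all 3 groups. The log_2_FC against Rest was 0.21 (FDR = 0.0835) at EPS 0h and 0.03 (95% CI -0.17 to 0.23) at EPS 3h, so neither passed the threshold. At EPS 0h, where replicate numbers were taken as pairs by the rule given below, the fit with a replicate block gave 0.22 (FDR = 0.0319). It passed the threshold, as did leaving out replicate 1 (0.29, FDR = 0.023) or 6 (0.29, FDR = 0.0236). After knockdown, *Arntl* had 26.5, 28.5 and 36.1 RPM at Rest, 36.6, 40.6 and 47.8 RPM at EPS 0h and 34.3, 35.3 and 40.5 RPM at EPS 3h. All EPS 0h libraries were above all Rest libraries, with a log_2_FC of 0.44 (SE 0.0992, FDR = 0.000464), and EPS 3h overlapped with Rest at 0.28 (FDR = 0.0192). The rise at EPS 0h was 0.65 in replicates 1 to 3 and 0.25 (FDR = 0.131) in replicates 4 to 6, and the EPS 3h call was lost without replicate 1 (0.23, FDR = 0.0609) or 2 (0.23, FDR = 0.117), and with library size alone as the scaling (0.11, FDR = 0.355). Ratios between members, here and below, were formed after the levels were seen, so a lack of overlap follows in part from that choice. Within libraries the level of *Clock* over that of *Arntl* ranged from 1.52 to 2.32 in Rest control and from 2.85 to 4.15 in EPS 0h control myotubes, without overlap. With *Tug1* KD it ranged from 1.87 to 2.57 at Rest and from 2.49 to 4.53 at EPS 0h, with overlap at the edge.

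*Cry1* and *Cry2*, the cryptochromes that repress the activator pair, went in opposite directions. *Cry1* (ENSMUSG00000020038, chromosome 10, 84967560 to 85021252, minus strand), whose promoter has the E-box shown above, had 26.4, 30.1 and 32.7 RPM in Rest control, 35.9, 37.9 and 44.4 RPM in EPS 0h control and 38.8, 41.0 and 46.2 RPM in EPS 3h control myotubes. Each library after EPS was above each Rest library. The log_2_FC was 0.38 (SE 0.0761, FDR = 0.00014) at EPS 0h and 0.48 (SE 0.0761, FDR = 2.05e-06) at EPS 3h. With *Tug1* KD, *Cry1* had 26.5, 27.9 and 31.5 RPM at Rest, 32.6, 37.7 and 41.8 RPM at EPS 0h and 30.2, 35.7 and 41.0 RPM at EPS 3h. Rest and EPS 0h did not overlap, with a log_2_FC of 0.39 (FDR = 8.94e-05), and EPS 3h overlapped with Rest at 0.30 (FDR = 0.00103). In replicates 4 to 6 alone the *Tug1* KD values were 0.24 (FDR = 0.0901) and 0.14 (FDR = 0.279), against 0.55 and 0.49 in replicates 1 to 3, and at EPS 3h scaling by library size alone gave 0.14 (FDR = 0.126).

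*Cry2* (ENSMUSG00000068742, chromosome 2, 92233894 to 92264474, minus strand) had 20.8, 26.1 and 27.1 RPM in Rest control, 13.3, 17.6 and 22.2 RPM in EPS 0h control and 12.2, 15.6 and 16.8 RPM in EPS 3h control myotubes. The EPS 3h libraries were all under the Rest libraries, and the EPS 0h libraries overlapped with the lowest Rest library. It fell by 0.53 on the log_2_ scale (SE 0.115, FDR = 0.000355) at EPS 0h and by 0.74 (SE 0.115, FDR = 1.58e-06) at EPS 3h. After knockdown, *Cry2* had 20.7, 23.6 and 25.7 RPM at Rest, 14.3, 17.1 and 21.3 RPM at EPS 0h and 11.2, 15.3 and 17.9 RPM at EPS 3h. The pattern of overlap was the same, with a log_2_FC of -0.43 (FDR = 0.00248) and -0.67 (FDR = 9.05e-06). The EPS 0h call was lost when GC content and length of the transcripts were modelled (-0.23, FDR = 0.0743). In replicates 4 to 6 alone the EPS 0h values were -0.36 (FDR = 0.0706) and, with *Tug1* KD, -0.34 (FDR = 0.0937). Scaling between libraries cancels in ratios within libraries. The trend with GC content given below does not cancel in this or the other ratios between members (49.2% GC for *Cry1* and 55.8% for *Cry2*). Within libraries *Cry1* over *Cry2* ranged from 1.08 to 1.27 in Rest control, from 1.71 to 2.96 in EPS 0h control and from 2.42 to 3.55 in EPS 3h control myotubes. With *Tug1* KD the same ratio lay between 1.03 and 1.32 (Rest), 1.62 and 2.54 (EPS 0h) and 1.97 and 3.10 (EPS 3h). In both LNA groups every stimulated library was above every Rest library. The ratio was formed after *Cry1* and *Cry2* were seen to part, so this separation follows from their levels and is no further result.

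The 3 *Per* genes, which encode the period proteins, did not move together. *Per1* (ENSMUSG00000020893, chromosome 11, 68986035 to 69002300, plus strand) had 32.4, 42.0 and 54.4 RPM in Rest control, 39.6, 48.5 and 59.1 RPM in EPS 0h control and 38.3, 49.8 and 62.1 RPM in EPS 3h control myotubes. The groups overlapped widely. Its log_2_FC against Rest was 0.18 (95% CI -0.08 to 0.44, FDR = 0.267) at EPS 0h and 0.19 (95% CI -0.07 to 0.44, FDR = 0.227) at EPS 3h, intervals that leave out a doubling or a halving at these times. The EPS 3h value was 0.07 (FDR = 0.741) in replicates 1 to 3 and 0.34 (FDR = 0.0363) in replicates 4 to 6. With *Tug1* KD, *Per1* had 27.1, 32.3 and 38.1 RPM at Rest, 23.3, 29.4 and 34.6 RPM at EPS 0h and 27.8, 35.7 and 44.1 RPM at EPS 3h. Against Rest the differences of -0.17 (FDR = 0.282) and 0.14 (FDR = 0.358) did not pass the threshold. Between EPS 0h and EPS 3h it was 0.32 higher (FDR = 0.0961), and the replicate block, in a comparison where replicate numbers were taken as pairs, gave 0.32 (FDR = 0.025).

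*Per2* (ENSMUSG00000055866, chromosome 1, 91343700 to 91387069, minus strand) had 22.1, 32.3 and 36.6 RPM in Rest control, 29.2, 33.2 and 37.3 RPM in EPS 0h control and 31.8, 32.6 and 39.9 RPM in EPS 3h control myotubes. These groups overlapped, with a log_2_FC of 0.13 (FDR = 0.437) and 0.17 (FDR = 0.248). The EPS 3h value was -0.02 (FDR = 0.935) in replicates 1 to 3 and 0.42 (FDR = 0.0149) in replicates 4 to 6. After knockdown, *Per2* had 18.6, 23.9 and 27.6 RPM at Rest, 31.6, 34.5 and 39.7 RPM at EPS 0h and 25.2, 31.4 and 41.2 RPM at EPS 3h. All EPS 0h libraries were above all Rest libraries, at a log_2_FC of 0.60 (SE 0.125, FDR = 0.000188), and EPS 3h was 0.53 higher (SE 0.125, FDR = 0.00058) with overlap. The responses in the 2 LNA groups are compared with each other after the knockdown results.

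*Per3* (ENSMUSG00000028957, chromosome 4, 151081373 to 151129140, minus strand), whose promoter has the pair of D-boxes, had 14.9, 21.7 and 27.1 RPM in Rest control, 15.6, 18.1 and 23.1 RPM in EPS 0h control and 9.81, 15.5 and 17.2 RPM in EPS 3h control myotubes. The 3 ranges overlapped, and all 6 EPS 3h libraries were under the Rest mean. It fell by 0.54 on the log_2_ scale (SE 0.164, FDR = 0.00556) at EPS 3h, and the value at EPS 0h was -0.21 (FDR = 0.315). The EPS 3h value was -0.77 in replicates 1 to 3 and -0.25 (FDR = 0.21) in replicates 4 to 6. With *Tug1* KD, *Per3* had 14.5, 25.2 and 27.6 RPM at Rest, 20.2, 23.4 and 31.6 RPM at EPS 0h and 14.3, 20.8 and 26.2 RPM at EPS 3h. None of these differences passed the threshold (log_2_FC 0.08, FDR = 0.706, and -0.20, FDR = 0.303).

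**Figure D2:**
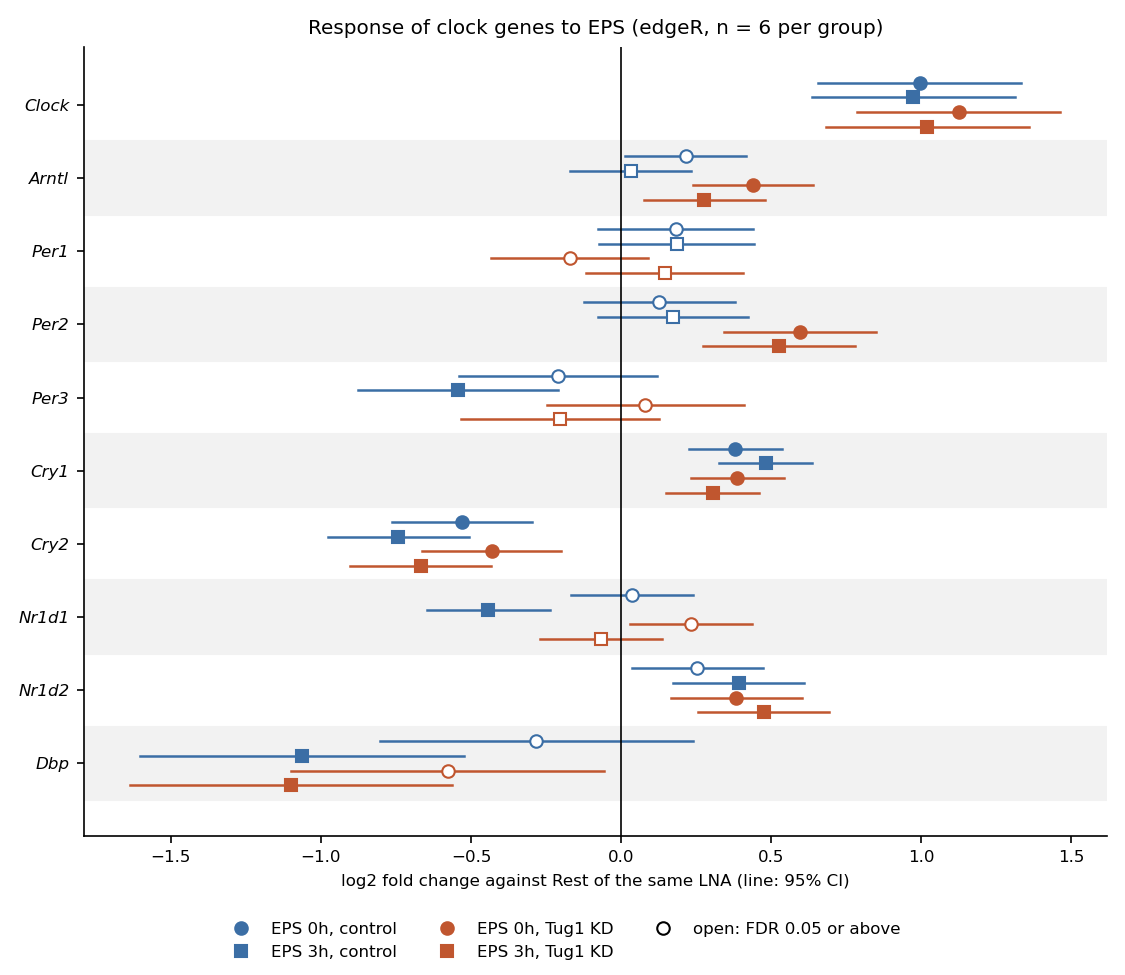
log_2_ fold change of each clock gene against Rest of the same LNA (x axis, lines give 95% confidence intervals from edgeR, n = 6 libraries per group) at EPS 0h (circles) and EPS 3h (squares) in control (blue) and *Tug1* KD (orange) myotubes, with open symbols for an FDR of 0.05 or above. *Clock*, *Cry1* and *Cry2* pass in all 4 comparisons, *Clock* near 1, and *Cry1* and *Cry2* lie on opposite sides of 0.

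The nuclear receptor genes *Nr1d1* and *Nr1d2* also parted. *Nr1d1* (ENSMUSG00000020889, chromosome 11, 98658752 to 98666188, minus strand), which encodes REV-ERBα, had 27.4, 29.1 and 31.6 RPM in Rest control, 24.0, 30.5 and 35.2 RPM in EPS 0h control and 18.7, 22.4 and 24.1 RPM in EPS 3h control myotubes. Rest and EPS 0h overlapped, at a log_2_FC of 0.04 (FDR = 0.798), and every EPS 3h library was under every Rest library. It fell by 0.44 on the log_2_ scale against Rest (SE 0.101, FDR = 0.000359) and by 0.48 against EPS 0h (SE 0.101, FDR = 0.000698). The latter was -0.63 in replicates 1 to 3 and -0.29 (FDR = 0.0873) in replicates 4 to 6. After knockdown, *Nr1d1* had 25.2, 29.9 and 36.1 RPM at Rest, 31.8, 36.7 and 39.3 RPM at EPS 0h and 25.6, 27.0 and 36.3 RPM at EPS 3h. The value against Rest was 0.23 (FDR = 0.0544) at EPS 0h, which passed the threshold with the replicate block (0.23, FDR = 0.0358), and -0.07 (FDR = 0.604) at EPS 3h. That EPS 3h value pooled opposite signs. Replicates 4 to 6, fitted alone, passed the threshold at -0.33 (FDR = 0.018), while replicates 1 to 3 pointed upward without passing (0.22, FDR = 0.149). Whether the sets differ here was not tested. *Nr1d1* fell by 0.30 between EPS 0h and EPS 3h (SE 0.0999, FDR = 0.0358), a call that was lost without replicate 3, 4, 5 or 6 (FDR from 0.0732 to 0.156). The EPS 3h difference from Rest in control myotubes was -0.23 (FDR = 0.179) when GC content and length of the transcripts were modelled. *Nr1d1* shares 1694 bases of exon with *Thra*, the thyroid hormone receptor gene on the other strand, which fell by 0.31 on the log_2_ scale in the same comparison (FDR = 0.0153). How many of their reads are shared was not tested.

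*Nr1d2* (ENSMUSG00000021775, chromosome 14, 4230545 to 4266624, plus strand), which encodes REV-ERBβ, had 48.5, 63.1 and 70.9 RPM in Rest control, 62.4, 74.3 and 86.5 RPM in EPS 0h control and 62.1, 86.8 and 89.0 RPM in EPS 3h control myotubes. The ranges overlapped. The log_2_FC was 0.25 (FDR = 0.0584) at EPS 0h, where the replicate block gave 0.25 (FDR = 0.0445) and leaving out replicate 6 gave 0.36 (FDR = 0.00475), and 0.39 (SE 0.108, FDR = 0.00251) at EPS 3h, where scaling by library size alone gave 0.22 (FDR = 0.0861). With *Tug1* KD, *Nr1d2* had 58.2, 63.5 and 74.6 RPM at Rest, 68.2, 86.0 and 96.0 RPM at EPS 0h and 69.4, 88.8 and 107 RPM at EPS 3h. It rose by a log_2_FC of 0.38 (FDR = 0.00392) and 0.48 (FDR = 0.000339), with overlapping ranges. Within replicates 4 to 6 these were 0.23 (FDR = 0.233) and 0.28 (FDR = 0.101). Within libraries *Nr1d2* over *Nr1d1* ranged from 1.54 to 2.37 in Rest control and from 2.83 to 4.69 in EPS 3h control myotubes, without overlap, and with *Tug1* KD between 1.88 and 2.65 at Rest and between 2.60 and 3.44 at EPS 3h, with overlap at the edge.

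*Dbp* (ENSMUSG00000059824, chromosome 7, 45354512 to 45359627, plus strand), the output gene that encodes the D-box binding protein, showed the largest fall among the members and the lowest counts, from 35 to 233 per library. It had 6.65, 8.10 and 9.97 RPM in Rest control, 3.84, 5.98 and 10.2 RPM in EPS 0h control and 1.93, 3.96 and 5.33 RPM in EPS 3h control myotubes. The EPS 3h libraries were all under the Rest libraries. The log_2_FC was -0.28 (95% CI -0.80 to 0.24, FDR = 0.403) at EPS 0h and -1.06 (SE 0.266, FDR = 0.00101) at EPS 3h. At EPS 0h the 2 sets of replicates disagreed. In replicates 1 to 3 the mean went from 8.28 to 4.14 RPM between Rest and EPS 0h (log_2_FC -1.004, FDR = 0.0064), and in replicates 4 to 6 from 7.94 to 9.18 RPM (log_2_FC 0.21, FDR = 0.418). The difference between the sets was not tested. By EPS 3h both sets were lower, by 1.35 and by 0.81 on the log_2_ scale. The fall from EPS 0h to EPS 3h (log_2_FC -0.78, FDR = 0.0391) was -0.35 (FDR = 0.442) in replicates 1 to 3 and -1.02 (FDR = 0.00149) in replicates 4 to 6, and it lost its call without replicate 1, 4, 5 or 6 (FDR from 0.0732 to 0.167).

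The same split was seen in *Tug1* KD myotubes, where *Dbp* had 8.82, 9.37 and 11.1 RPM at Rest, 2.81, 6.62 and 9.99 RPM at EPS 0h and 2.502, 4.87 and 6.52 RPM at EPS 3h. From Rest to EPS 0h the mean of replicates 1 to 3 went from 9.93 to 4.11 RPM and that of replicates 4 to 6 from 9.41 to 8.78 RPM. Over all 6 replicates the log_2_FC was -0.58 (FDR = 0.0646) at EPS 0h, and -0.65 (FDR = 0.00841) with the replicate block. Leaving out replicate 5 gave -0.74 (FDR = 0.0293). At EPS 3h it was -1.10 (SE 0.264, FDR = 0.000662), and every library was under every Rest library. *Dbp* shares 539 bases of exon with *Sphk2* on the other strand, and *Sphk2* rose (log_2_FC 0.67 at EPS 3h in control, FDR = 1.79e-06), opposite to *Dbp*.

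**Figure D3:**
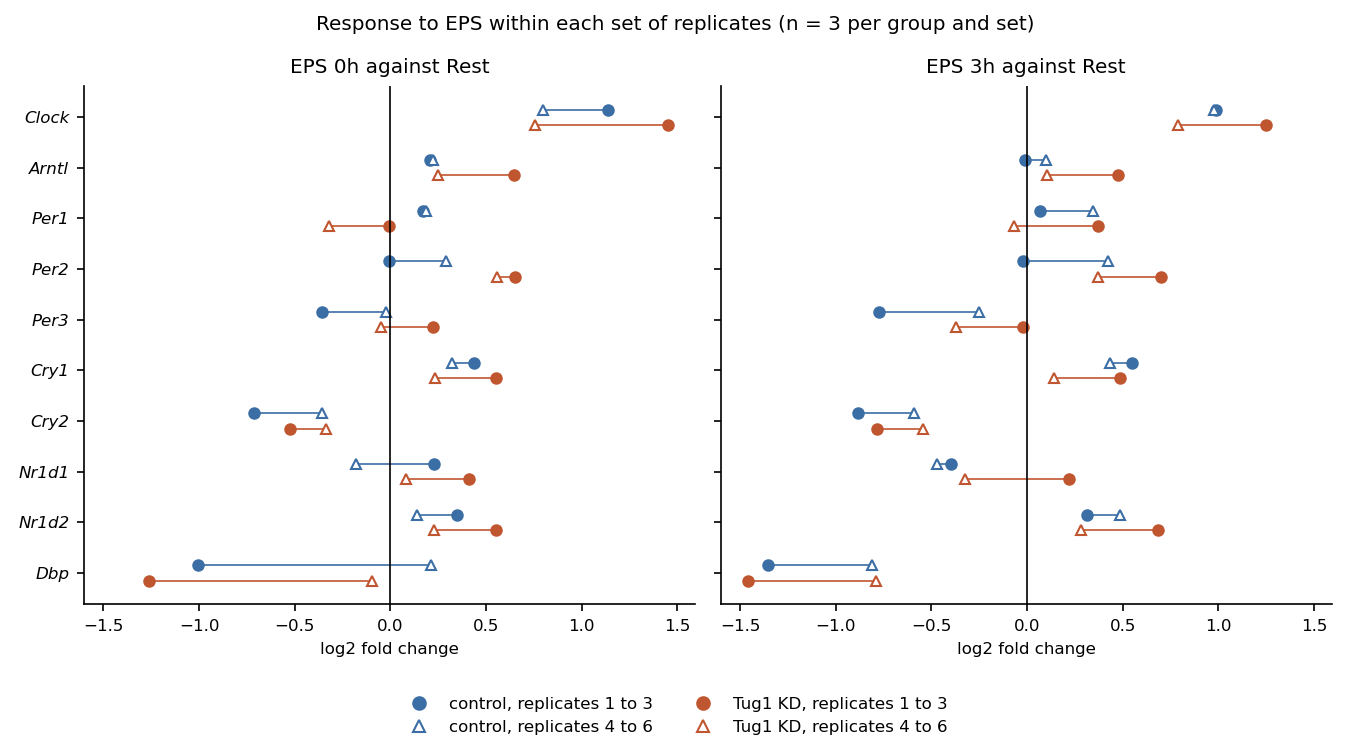
log_2_ fold change of each clock gene against Rest (x axis) at EPS 0h (left) and EPS 3h (right), fitted to replicates 1 to 3 alone (filled circles) and to replicates 4 to 6 alone (open triangles), n = 3 libraries per group, in control (blue) and *Tug1* KD (orange) myotubes. *Dbp* at EPS 0h has the widest gap, -1.004 against 0.21 in control and -1.26 against -0.10 in *Tug1* KD myotubes, while *Clock*, *Cry1* and *Cry2* keep their sign in every set.

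From EPS 0h to EPS 3h with the control LNA, 0 of 10 members were higher beside 9.67% of all genes and 2 of 10 were lower beside 6.88%, namely *Nr1d1* and *Dbp* with the values above. In *Tug1* KD myotubes 0 of 10 were higher beside 8.59% and 1 of 10 was lower beside 7.13%, namely *Nr1d1*, and with the replicate block 2 were called, the other being *Per1*. In these comparisons library-size scaling moved the share of calls that were higher from 58.4% to 36.7% in control and from 54.6% to 36.8% in *Tug1* KD myotubes. The levels of *Clock*, *Cry1* and *Cry2* at EPS 3h differed from those at EPS 0h by -0.02, 0.10 and -0.21 on the log_2_ scale in control myotubes, none past the threshold, and their 95% confidence intervals lay between -0.45 and 0.31.

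The response of all genes to EPS moved with base composition. Spearman's rho between the log_2_FC and the GC content of the longest transcript was taken across the 13947 genes with an annotated transcript. It was -0.36 (EPS 0h) and -0.34 (EPS 3h) with the control LNA, a description across genes that share libraries. For *Tug1* KD against control it was -0.25 at Rest, -0.25 at EPS 0h and -0.06 at EPS 3h. With transcript length, rho was 0.12 and 0.07 for EPS in control and 0.19, 0.30 and 0.24 for the knockdown. The members span a range of GC content. *Clock* (41.5% GC) and *Nr1d2* (42.1%), the most AT-rich members, were among those that rose, *Arntl* (48.1%), *Cry1* (49.2%), *Per3* (52.4%) and *Per2* (54.1%) lay between, and *Cry2* (55.8%), *Per1* (56.1%), *Nr1d1* (56.3%) and *Dbp* (61.1%) were the most GC-rich. With GC content and length modelled, an alternative chosen after the data were seen, the EPS 3h values in control myotubes were 0.58 (FDR = 4.66e-09) for *Clock*, 0.48 (FDR = 1.66e-06) for *Cry1*, 0.15 (FDR = 0.0266) for *Nr1d2*, -0.49 (FDR = 0.000176) for *Cry2*, -0.45 (FDR = 0.0301) for *Per3* and -0.91 (FDR = 0.000103) for *Dbp*. *Clock* and *Nr1d2* were thus smaller than without the offsets (0.97 and 0.39), *Cry1* stayed at 0.48 and *Nr1d1* lost its call. *Per1* and *Per2* then passed the threshold, at 0.36 (FDR = 0.0314) and 0.31 (FDR = 0.042). At EPS 0h with the control LNA the offsets took *Clock* from 0.99 to 0.65, *Cry2* from -0.53 to -0.33 (both still called) and *Nr1d2* from 0.25 to 0.06 (FDR = 0.435). With *Tug1* KD they took *Clock* from 1.12 to 0.66 at EPS 0h and from 1.02 to 0.58 at EPS 3h, and *Nr1d2* from 0.38 to 0.16 and from 0.48 to 0.26, all still called. There *Cry2* at EPS 0h lost its call, as given above, while *Nr1d1* (0.44, FDR = 0.00962) and *Dbp* (-0.44, FDR = 0.0452) gained one at EPS 0h. Between EPS 0h and EPS 3h with *Tug1* KD, *Nr1d1* lost its call (-0.34, FDR = 0.0816) and *Dbp* gained one (-0.61, FDR = 0.0177).

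**Figure D4:**
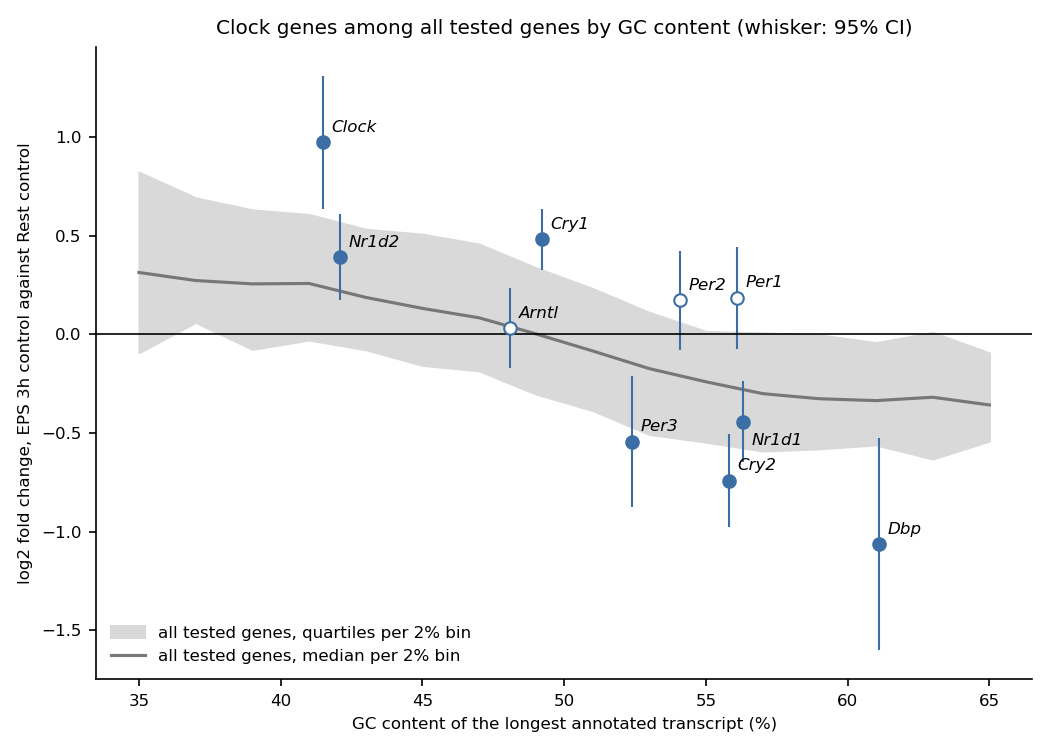
log_2_ fold change at EPS 3h against Rest in control myotubes (y axis) by GC content of the longest annotated transcript in percent (x axis). The grey line and band give the median and quartiles of all tested genes in bins of 2% with at least 20 genes, points are the 10 clock genes with 95% confidence intervals, and open points have an FDR of 0.05 or above. The median of all genes falls from 0.31 at 34 to 36% GC to -0.36 at 64 to 66%, with *Clock*, *Cry1*, *Per1* and *Per2* above the band (the last 2 as open points) and *Per3*, *Cry2* and *Dbp* under it.

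*Per1* was the member called in all 3 comparisons of *Tug1* KD with control myotubes. At Rest, 2 of 10 members were lower with *Tug1* KD beside 4.47% of all genes, and 0 of 10 were higher beside 5.54%. At EPS 0h, 1 of 10 was lower beside 6.07% and 0 of 10 were higher beside 8.25%. At EPS 3h, 2 of 10 were lower beside 5.11% and 1 of 10 was higher beside 6.38%. With so few members these counts say nothing particular to them. At EPS 0h library-size scaling moved the share of calls that were higher from 57.6% to 46.9%. The 8 markers of other cell types summed at Rest to between 1.82 and 3.00 RPM with *Tug1* KD, under all Rest control libraries (3.75 to 6.78 RPM). Of the 3 tested, the macrophage marker *Cd68* was lower there (log_2_FC -1.02, FDR = 0.000116), and the part of these markers in the knockdown results was not tested.

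*Per1* was lower at Rest by 0.43 on the log_2_ scale (SE 0.128, FDR = 0.0257) with overlap, at EPS 0h by 0.78 (SE 0.129, FDR = 3.95e-05) without overlap between the 6 and 6 libraries, and at EPS 3h by 0.47 (SE 0.128, FDR = 0.0126) with overlap. At EPS 0h that is 0.583 of the control level, with -0.88 in replicates 1 to 3 against -0.64 in replicates 4 to 6. At Rest the difference lay in replicates 1 to 3, whose means were 49.8 RPM with the control LNA and 30.6 RPM with *Tug1* KD, while those of replicates 4 to 6 were 37.5 and 34.4 RPM (log_2_FC -0.13, FDR = 0.544). The Rest call was lost without replicate 1 (FDR = 0.11), 2 (FDR = 0.146) or 3 (FDR = 0.0743), and the EPS 3h call without replicate 3 (-0.40, FDR = 0.0736). At Rest it was also lost with GC and length offsets (-0.40, FDR = 0.0547) and without a filter on low counts (FDR = 0.074). At EPS 0h the call held when any 1 replicate was left out.

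*Per2* was lower in *Tug1* KD at Rest by 0.40 on the log_2_ scale (SE 0.125, FDR = 0.0345), and at EPS 0h and EPS 3h the differences were 0.07 (95% CI -0.18 to 0.32) and -0.04 (95% CI -0.29 to 0.21). The Rest difference was -0.68 in replicates 1 to 3 and -0.08 (FDR = 0.718) in replicates 4 to 6, and the call was lost without replicate 1, 2, 3 or 6 (FDR from 0.059 to 0.214). *Per3* had the opposite sign, at 0.42 (FDR = 0.0817) at EPS 0h and 0.47 (FDR = 0.0607) at EPS 3h. Both passed with the replicate block, in comparisons where replicate numbers were taken as pairs (FDR = 0.0171 and 0.0124).

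*Nr1d1* was higher in *Tug1* KD at EPS 3h by a log_2_FC of 0.44 (SE 0.101, FDR = 0.00284), with every *Tug1* KD library above every control library. In replicates 4 to 6 alone it was 0.32 (FDR = 0.0611). At EPS 0h it was 0.26 higher (FDR = 0.0791, and 0.0398 with the replicate block). With the replicate block 3 members were called at EPS 0h, *Per1*, *Per3* and *Nr1d1*. *Cry1* was lower at EPS 3h by 0.24 on the log_2_ scale (SE 0.076, FDR = 0.035), a call that was lost without replicate 1, 3, 4, 5 or 6 (FDR from 0.0526 to 0.143). *Clock*, *Arntl*, *Cry2*, *Nr1d2* and *Dbp* did not pass in any of the 3 conditions. For *Clock* the interval at EPS 0h ran from -0.13 to 0.54 and for *Cry2* from -0.24 to 0.23, so a doubling or a halving of either is outside it.

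**Figure D5:**
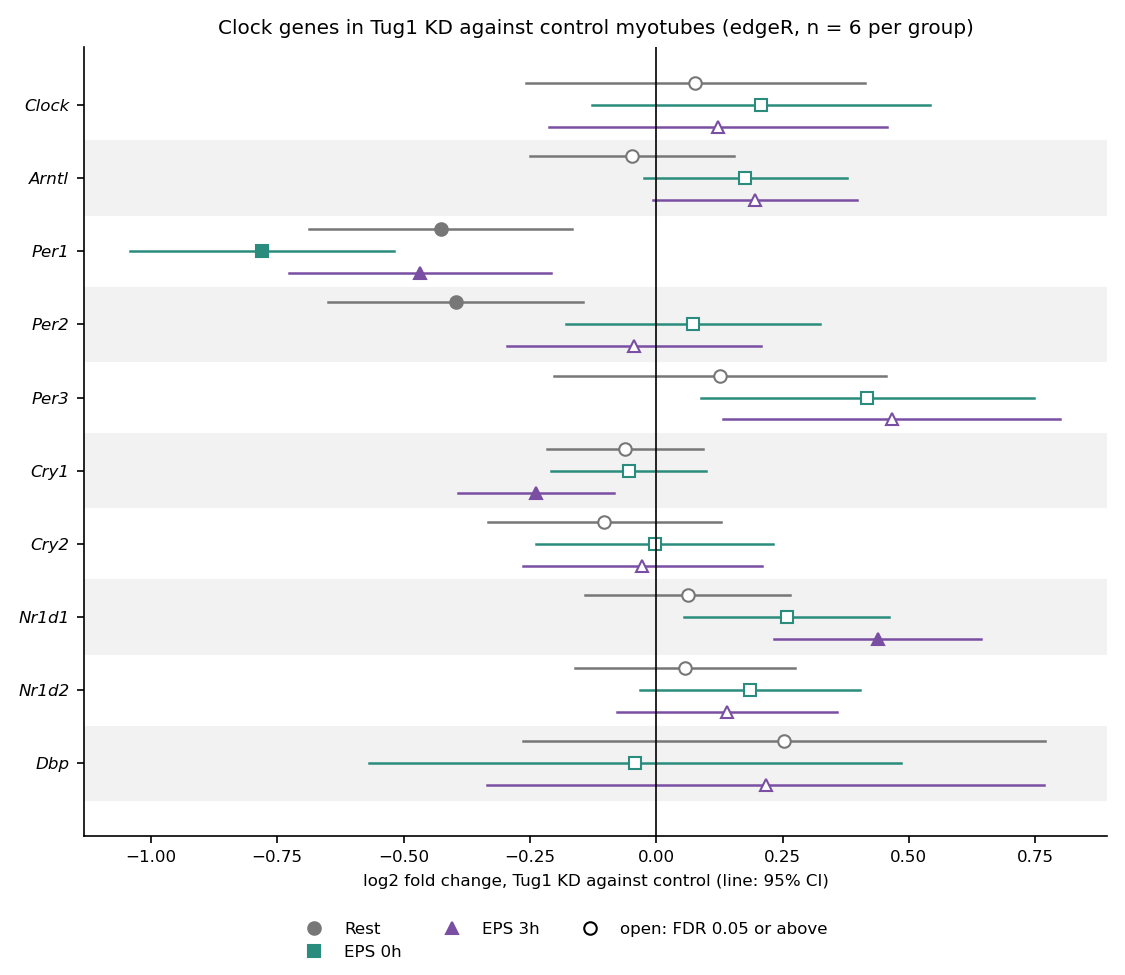
log_2_ fold change of each clock gene in *Tug1* KD against control myotubes (x axis, lines give 95% confidence intervals from edgeR, n = 6 libraries per group) at Rest (grey circles), EPS 0h (green squares) and EPS 3h (purple triangles), with open symbols for an FDR of 0.05 or above. *Per1* lies left of 0 in all 3 conditions, at -0.43, -0.78 and -0.47.

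Whether *Tug1* KD changed the response to EPS was tested as the difference between the responses. None of the 10 members passed the FDR threshold at EPS 0h, where 0% of all genes did, or at EPS 3h, where 0.00715% did (1 gene, *Fut2*), and DESeq2 and limma-voom called the same numbers over all genes. At an unadjusted p under 0.05, 1 member was found at EPS 0h, *Per2*, whose response was 0.47 larger in *Tug1* KD (95% CI 0.11 to 0.83), and 1 at EPS 3h, *Nr1d1*, with 0.38 (95% CI 0.09 to 0.66). Over all genes 2.32% and 3.07% were under that p. Calls of *Arntl*, *Per2* or *Per3* in one LNA group alone are therefore not shown to differ between the LNA groups.

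The other genes around the loop were counted from lists chosen from textbook knowledge, with the 4 lowest FDR values at EPS 3h in control myotubes named. A lack of overlap with Rest among the named genes follows in part from that choice. The share of all genes without overlap was not counted. Of 11 paralogs, ROR receptors, D-box and E-box repressors, 9 were tested, and 2 were higher and 3 lower at EPS 3h in control myotubes, beside 26.1% and 25.9% of all genes. *Bhlhe40*, an E-box repressor that competes with the activator pair, fell from a median of 305 to 136 RPM (log_2_FC -1.06, FDR = 3.30e-07), without overlap. *Tef*, a D-box activator related to *Dbp*, fell by 0.31 on the log_2_ scale (FDR = 0.000967), and *Ciart*, a repressor of the pair, fell by 0.58 (FDR = 0.00585). *Nfil3*, which represses through D-boxes, rose by 0.32 (FDR = 0.0111). *Tef* and *Nfil3* were named for their low FDR in a list whose counts lay near the shares of all genes. *Hlf*, also on the list, did not pass the filter on low counts, and activity at D-boxes was not measured.

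Of 21 kinases, ubiquitin ligases and other regulators of clock proteins, 20 were tested, with 8 higher beside 26.1% of all genes and 4 lower beside 25.9%. *Sirt1*, the deacetylase that acts on BMAL1 and PER2, rose from a median of 32.9 to 75.2 RPM (log_2_FC 1.24, FDR = 4.66e-07). *Fbxw11* and *Prkaa1*, a ligase subunit that targets PER proteins and a catalytic subunit of AMPK, rose by 0.62 (FDR = 1.49e-07) and 0.81 (FDR = 6.32e-06). *Hdac3*, the corepressor of the REV-ERBs, fell by 0.39 (FDR = 5.10e-06). All 4 parted from Rest without overlap, in the comparison by which they were picked. As said above, the share of all genes that did so was not counted.

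Of 12 genes on input pathways, 3 were higher and 3 lower, close to the 26.1% and 25.9% of all genes. *Nr3c1*, the glucocorticoid receptor, rose by 0.88 (FDR = 3.19e-08), *Sik1*, a kinase that restrains CREB signalling, by 0.77 (FDR = 3.34e-06) and *Creb1* by 0.60 (FDR = 0.000123). *Cirbp*, an RNA-binding protein induced by cold, fell by 0.85 (FDR = 5.39e-05). Of 5 glucocorticoid-responsive genes, 4 were tested, with 1 higher and 2 lower beside the same shares. *Fkbp5* and *Tsc22d3* fell by 0.60 (FDR = 9.26e-06) and 0.39 (FDR = 7.12e-05), *Sgk1* rose by 0.63 (FDR = 4.34e-05) and *Klf9* was at -0.07 (FDR = 0.606).

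Of 15 rhythmic output genes of muscle and other tissues, 13 were tested, with 1 higher beside 26.1% of all genes and 8 lower beside 25.9%, and their median log_2_FC was -0.39 beside -0.02 over all genes. *Pdk4*, which restrains glucose oxidation, fell from a median of 44.4 to 25.4 RPM (log_2_FC -0.87, FDR = 1.09e-07). *Hk2*, a hexokinase, fell by 0.61 (FDR = 0.000258), and *Myod1*, a myogenic factor and clock-controlled gene of muscle, by 0.50 (FDR = 7.34e-06). Of the genes tested, *Tsc22d3*, *Tef*, *Ciart*, *Usp2*, *Nampt* and *Bhlhe41* are on this list and on a list above. The counts of these lists are therefore not independent. In *Tug1* KD myotubes the list had 0 higher beside 26.2% of all genes and 7 lower beside 25.9% at EPS 3h. For the knockdown at Rest, where 4.47% of all genes were lower, it had 2 lower, the regulators and the paralogs 1 lower each and the input genes none.

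Over all 36 libraries, after centring each set of replicates, the genes with the levels most like those of a member were found among 10610 genes whose mean reached 5 RPM. For *Clock* these were *Rev3l* and *Nrip1*, with Pearson's r of 0.985 and 0.983, and for *Nr1d2* *Erbin* and *Osbpl8* (0.956 and 0.95). For *Cry1* they were *Ing3* and *Slc30a5* (0.922 and 0.918), for *Cry2* *Smug1* and *Map11* (0.946 and 0.934) and for *Dbp* *Tssc4* and *Acp6* (0.934 and 0.921). *Per3* was most like *Ogt* and *Supt20* (0.913 and 0.904), *Per2* like *Fnbp4* and *Ncoa3* (0.894 and 0.871) and *Arntl* like *Arfgef2* and *Aff1* (0.893 and 0.884). *Per1* was most like *Relt* and *Mlxip* (0.846 and 0.837) and *Nr1d1* like *Tnrc6b* and *St3gal1* (0.844 and 0.832). Among the members the closest pair was *Clock* and *Nr1d2* (r = 0.881) and the most opposed pair *Cry2* and *Clock* (r = -0.752). These r values describe libraries that share conditions, depth and base composition and carry no p.

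Levels of different members are comparable only per length. In RPM per kb of the longest annotated transcript, the mean ± SD in Rest control myotubes (n = 6) was 10.9 ± 1.42 for *Nr1d2* and 10.2 ± 0.635 for *Nr1d1*, then 7.87 ± 0.539 for *Cry1*. *Arntl* (6.71), *Per1* (6.53), *Clock* (6.46), *Cry2* (6.08), *Per2* (4.82), *Dbp* (4.29) and *Per3* (3.52) followed. The libraries of every pair of neighbours in this order overlapped except *Nr1d1* and *Cry1*. Members further apart could still be separate, since the lowest *Cry1* library (6.97) was above the highest libraries of *Cry2* (6.52), *Per2* (5.80), *Dbp* (5.28) and *Per3* (4.47). The transcripts in use were not measured, and reads of overlapping genes enter these levels. Beside the overlaps given above, *Cry2* shares 296 bases of exon with *D930015M05Rik* and *Per3* 154 bases with *Uts2*, both on the other strand and at means of 0.224 and 0.0745 RPM in Rest control myotubes.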

How the data were processed

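RNA of 36 wells was poly-A selected, made into stranded libraries and sequenced as 150-bp pairs. According to the submitters' processing notes, fastp 0.14.1, FastQC 0.11.7 and STAR 2.5 were used with GRCm39. The strand setting of the counting is not given in the sources used here. The authors deposited whole-number counts per gene without normalization, in 36 tables that were identical to the 36 columns of 1 matrix. Of its 55416 genes, 1492 have no name and hold 0.0327% of the counts.

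Groups and replicate numbers were read from titles, and no library was left out. In R 4.3.3, genes that reached 1 RPM in 12 or more of the 36 libraries were kept (13995), scaled by TMM and fitted with all 6 groups in edgeR 4.0.16 (quasi-likelihood, robust). Adjusted p-values are over all genes tested, and the SE is the log_2_FC divided by the square root of F. The scripts were tested on simulated data. Total counts ranged from 17005079 to 24181167, and those of the least abundant member, *Dbp*, from 35 to 233.

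Alternatives were DESeq2 1.42.0, limma-voom (limma 3.58.1), other scalings, filters and thresholds, a block on replicate number (replicate block) or on replicate set (experiment block), subsets of libraries, and, added after the data were seen, GC and length offsets. Replicate numbers were taken as pairs where all 6 same-numbered pairs of libraries correlated above 0.1 after centring within groups. This held for EPS 0h and EPS 3h against Rest in control, EPS 0h against Rest and EPS 3h against EPS 0h in *Tug1* KD, and *Tug1* KD against control at EPS 0h and EPS 3h (lowest r from 0.127 to 0.626), and not for EPS 3h against EPS 0h in control, EPS 3h against Rest in *Tug1* KD or *Tug1* KD against control at Rest (lowest r from -0.0962 to 0.0724). Libraries correlated best with their own number in all 6 cases only for *Tug1* KD against control at EPS 0h. They did so in 2 of 6 cases for EPS 0h against Rest in control and for *Tug1* KD against control at EPS 3h. Outside *Tug1* KD against control at EPS 0h, pairs of wells and shared sets of replicates are not told apart.

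The members and gene lists were chosen with earlier results of these data known. All 10 members are named, with at most 4 genes per list (lowest FDR at EPS 3h against Rest in control), the 2 genes most like each member, *Tug1* and the genes that overlap a member. *Epcam*, *Ptprc*, *Plin1*, *Cd68*, *Tnnt3*, *Myog* and *Fut2* were named after their values were seen. *Hlf*, *Usp2*, *Nampt* and *Bhlhe41* were named only for their place on the lists. Gene positions come from the GENCODE annotation of GRCm39, where *Arntl* is named *Bmal1*, and promoters from RefSeq on GRCm38.p6. The ratios between members were formed after the data were seen. Figures were drawn with matplotlib 3.10.9.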

Additional observations from a re-analysis of the deposited data

Results flagged for a closer look

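In the Rest control group, replicate 5 had the lowest level of *Cry2*, 20.8 RPM, and its gap to the next library was large for a group whose highest value was 27.1 RPM (Dixon's test, 95% critical value for 6 samples). It was 1 of 60 sets of 6 libraries checked, 10 members in 6 groups, and chance alone flags about 3 of 60 (1 in 20). The *Cry2* calls against Rest control held without replicate 5.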

How the results depend on the processing

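Of 32 called values of members, 608 refits under other settings gave 547 that kept direction and call, 61 that kept direction and lost the call and 0 that changed sign. The 78 uncalled values gave 59 calls and 106 changes of sign in 1482 refits. Counts of members called in either direction moved as follows. In control myotubes at EPS 0h against Rest (3 called), the replicate block and the experiment block gave 5, replicates 1 to 3 alone 5, GC and length offsets with the replicate block 6, and leaving out a replicate from 3 to 5. EPS 3h against EPS 0h in control (2) gave 1 with limma-voom, without a filter, with the compared groups alone, in either set of replicates and at an FDR under 0.01, and from 1 to 2 leaving out a replicate. EPS 0h against Rest in *Tug1* KD (6) gave 2 in replicates 4 to 6 alone. EPS 3h against EPS 0h in *Tug1* KD (1) gave 0 with the compared groups alone, in replicates 1 to 3 and at an FDR under 0.01, 2 with the replicate block, the experiment block or replicates 4 to 6, 3 with GC and length offsets and the replicate block, and from 0 to 1 leaving out a replicate. *Tug1* KD against control at Rest (2) gave 0 without a filter, in replicates 4 to 6 and at an FDR under 0.01, 1 with the compared groups alone or GC and length offsets, and from 0 to 2 leaving out a replicate. At EPS 0h (1) it gave 3 with the replicate block, the experiment block or GC and length offsets with the replicate block, and 2 with the compared groups or replicates 4 to 6 alone. At EPS 3h (3) it gave 1 in either set of replicates and at an FDR under 0.01, and from 1 to 3 leaving out a replicate. The counts for EPS 3h against Rest (7 in each LNA group) and for the interactions (0) stayed within 1.5 times under all settings. The replicate block changed no call other than those given. The cause of these changes was not tested, and the subsets also hold fewer libraries. Counting error is largest for *Dbp*, the member with the fewest counts (35 to 233 per library).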
